A study of Homo sapiens with 15 samples.

Results

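Genes of the Notch pathway were followed in the deposited count table, 10 of its 61544 genes, picked by gene name: the receptors NOTCH1, NOTCH2 and NOTCH3, the ligands JAG1, JAG2 and DLL1, the glycosyltransferase LFNG, and the Notch-induced genes HES1, HEY1 and NRARP. All 10 passed the filter on low counts. RNA-seq had been performed on HCC95, an established human line of lung squamous cell carcinoma (LUSC) origin, after transfection with 1 of 5 small interfering RNAs (siRNAs), short double-stranded RNAs that direct the cleavage of matching mRNA. siNC1 was the negative control, and siKLF5b, siTP63b, siSOX2b and siGRHL2a were aimed at the transcription factors KLF5, TP63, SOX2 and GRHL2. Each of the 5 groups had 3 libraries, each factor was targeted with a single siRNA, and the labels give no dose or time of transfection. The labels do not say whether the 3 libraries of a group came from separate cultures, so the p-values measure the spread between these libraries, which may be technical.

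Notch receptors are cut after a ligand on a neighbouring cell binds them, first by an ADAM protease and then by gamma-secretase. The freed intracellular domain enters the nucleus, joins the DNA-binding protein RBPJ and a Mastermind protein, and turns on genes such as HES1, HEY1 and NRARP. In stratified epithelia the pathway favours the differentiation of basal cells, the cells in which p63 is abundant, and NOTCH1 is often inactivated by mutation in squamous cell carcinomas.

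Promoters were read for the members at the ends of the pathway, HES1 and NRARP as targets and NOTCH3 and NOTCH2 as the receptors with the largest differences in siKLF5b. The sequences are the 250 bases upstream of a RefSeq transcription start (build GRCh38.p14), 5′ to 3′ on the strand of the gene. HES1 is shown at chr3:194135898-194136147 on the plus strand, NRARP at chr9:137302272-137302521, NOTCH3 at chr19:15200996-15201245 and NOTCH2 at chr1:120069663-120069912, these 3 on the minus strand. Capitals mark TGGGAA, the core of the RBPJ site, in HES1, a SOX site followed by a POU site (CATTGT, 1 base, ATGCAA) in NRARP, and GGGTG, the reverse of the CACCC box to which Krüppel-like factors can bind, in NOTCH3 and NOTCH2.
HES1: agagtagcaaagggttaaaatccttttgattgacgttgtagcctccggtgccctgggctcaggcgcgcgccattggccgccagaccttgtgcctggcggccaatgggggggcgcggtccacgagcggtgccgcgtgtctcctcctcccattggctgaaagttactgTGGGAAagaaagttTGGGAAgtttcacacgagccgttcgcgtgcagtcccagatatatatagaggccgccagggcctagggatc
NRARP: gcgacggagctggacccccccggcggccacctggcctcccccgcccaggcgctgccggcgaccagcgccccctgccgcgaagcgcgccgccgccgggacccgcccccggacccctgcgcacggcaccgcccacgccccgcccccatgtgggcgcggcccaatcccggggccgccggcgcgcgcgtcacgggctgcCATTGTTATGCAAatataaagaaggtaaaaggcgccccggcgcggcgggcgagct
NOTCH3: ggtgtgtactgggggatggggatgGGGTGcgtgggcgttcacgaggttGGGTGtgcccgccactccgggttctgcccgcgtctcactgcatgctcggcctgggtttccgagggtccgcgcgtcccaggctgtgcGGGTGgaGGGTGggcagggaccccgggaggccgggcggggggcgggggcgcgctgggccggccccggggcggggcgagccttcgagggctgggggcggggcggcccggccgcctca
NOTCH2: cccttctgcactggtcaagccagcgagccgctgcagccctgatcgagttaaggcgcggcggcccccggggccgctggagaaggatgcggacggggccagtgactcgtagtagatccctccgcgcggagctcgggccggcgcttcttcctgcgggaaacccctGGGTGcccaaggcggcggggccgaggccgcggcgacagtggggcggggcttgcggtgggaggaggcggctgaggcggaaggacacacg

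HES1 carried 2 copies of TGGGAA, from -84 to -79 and from -70 to -65 relative to the start. Searched on both strands (TTCCCA is its reverse), these letters were present in 20.9% of the 34943 promoters in the RefSeq table. Among the 8 members searched, LFNG was the other to hold it, with 1 copy at -248 before the second of its 2 starts. In all, 2 of the 9 windows searched held it. NRARP had no TGGGAA in its window. HES1 also had 3 matches to the N box (CACNAG, in 32.1% of promoters), the class of site that HES repressors bind, and HES1 protein is known to repress its own gene. CACCC or GGGTG was found 4 times in NOTCH3, 2 times in JAG2, 1 time each in NOTCH1, NOTCH2 and JAG1, and 2 and 3 times in the windows of LFNG, and 0 times in HES1 and NRARP. These letters were in 54.7% of all promoters, a share that counts neither copies nor base composition. G and C made up 78% of the NOTCH3 window and 72.8% of the NOTCH2 window, against a median of 58% over all windows. The windows of NRARP and HES1, without a match, were at 78.4% and 59.2%. DLL1 and HEY1 were not searched, and entries on chromosome 8, where HEY1 lies, had been left out beforehand. These matches describe letters in a window and were not tested for binding.

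Library totals, the sums of raw counts, ran from 15655495 to 24845273 over siNC1 and siKLF5b (6 libraries) and from 22255856 to 34229063 over the other knockdowns (9 libraries). The column names of the table part the libraries into these 2 sets, and even counts made up 49.7% to 50.7% of the genes with 20 to 500 counts in the first set and 66.1% to 69.0% in the second. The members showed the same split: 30 of 60 of their counts were even in the first set and 78 of 90 in the second. Set and knockdown cannot be told apart across the sets, so siKLF5b was tested against siNC1, the other knockdowns were tested against each other, and levels across sets are only described. Every targeted gene was lowest in its own group among the groups of its set, at 72.4 ± 1.14 CPM for KLF5 (113 ± 8.66 in siNC1), 363 ± 22.3 for TP63, 8.96 ± 1.63 for SOX2 and 91.2 ± 0.561 for GRHL2 (SD, n = 3; CPM is the count scaled to the TMM-corrected library total). The GRHL2 mean was not far above its own knockdown in siSOX2b, at 100 ± 4.58 CPM. All 8 squamous markers were present, KRT5 at 4675 to 9483 CPM, whereas SFTPC, CD3E, CD14, LYZ and DCN had 2 counts or fewer in every library. Other genes of the same marker lists were counted, NKX2-1 at 42 to 352, VWF at 84 to 342, COL1A1 at 39 to 178, PDGFRB at 18 to 114 and PTPRC at 2 to 40 counts.

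Per kilobase of annotated exon, JAG1 had the highest level of the 10 genes in each of the 5 groups, at 27.5 ± 1.2 CPM per kb in siNC1 (SD, n = 3). HES1 came next in siNC1 at 22.5 ± 2.5 and in siKLF5b at 18.3 ± 1.19 CPM per kb, whereas JAG2 took that place in siTP63b, siSOX2b and siGRHL2a, at 14.2 ± 1.07, 18.2 ± 0.819 and 18.9 ± 1.19 CPM per kb. The order in siNC1 ran on through JAG2, NRARP, NOTCH2, DLL1, HEY1, NOTCH1, NOTCH3 and LFNG, from 7.14 ± 0.23 down to 1.25 ± 0.285 CPM per kb. JAG2 and NRARP (6.78 ± 0.735), and HEY1 (2.76 ± 0.34) and NOTCH1 (2.53 ± 0.133), were neighbours that lay within 1 SD of each other. Counts had been made over the whole span of each gene, introns included, and exons cover 8.85% of the NOTCH2 span but 100% of the NRARP span. Divided by the whole span instead, HES1 stood above JAG1 in 4 of the 5 groups, at 17.9 against 7.05 CPM per kb in siNC1, and not in siSOX2b (8.71 against 9.1), and NOTCH1 stood above NOTCH2 in every group (0.614 against 0.448 in siNC1).

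**Figure D1:**
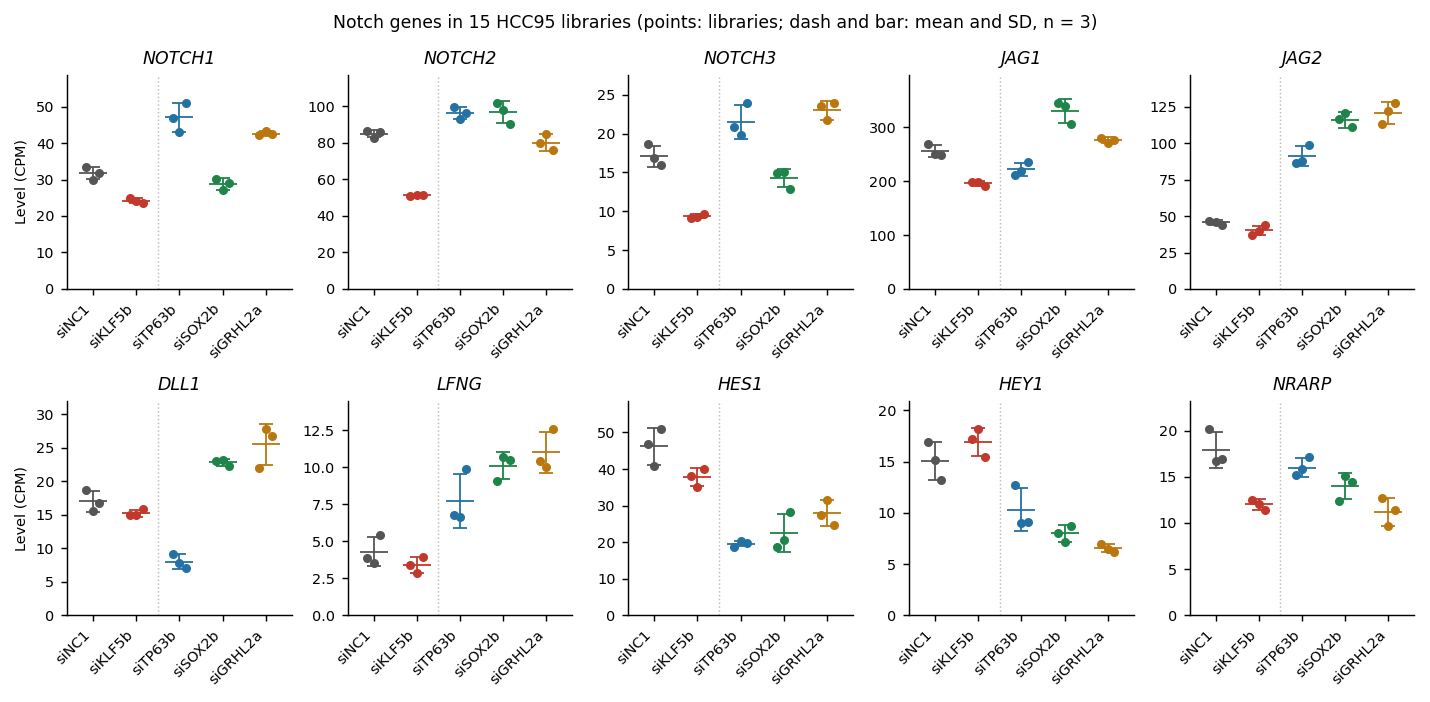
Level of each gene in CPM (TMM scaling, axes from 0) in the 15 libraries; points are libraries, dashes and bars the mean and SD of 3, and the dotted line parts the 2 column sets. All 3 siKLF5b libraries lie below all 3 siNC1 libraries for NOTCH1, NOTCH2, NOTCH3, JAG1, JAG2, HES1 and NRARP, and DLL1 in siTP63b, at 7.04 to 9.19 CPM, lies below every other library. Groups this small can stay apart at close means, as for GRHL2 (not shown) at 140 CPM in siKLF5b and 135 CPM in siNC1. The share of all genes that stay apart was not counted.

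With KLF5 knocked down, all 3 receptors were lower than in siNC1, NOTCH3 and NOTCH2 the most. Below, lower and higher are used for an adjusted p below 0.05 (edgeR quasi-likelihood test, Benjamini-Hochberg over 25108 genes), and a gene is said to pass both thresholds where the log2 fold change (log2FC) also exceeded 0.75 in size. NOTCH3 (chr19:15159038-15200995) read 18.6, 16.8 and 15.9 CPM in siNC1 and 9.09, 9.32 and 9.59 CPM in siKLF5b. The siNC1 mean was thus 1.83 times the siKLF5b mean, with a log2FC of -0.87 ± 0.1 (SE; adjusted p = 7e-08), and NOTCH3 was the only member past both thresholds in this comparison. NOTCH2 (chr1:119911553-120100779) read 86.2, 82.7 and 85.6 CPM in siNC1 and 51.1, 51.4 and 51.5 CPM in siKLF5b. The groups were far apart, and its log2FC of -0.73 ± 0.056 had the smallest adjusted p of the members, 2.2e-11. NOTCH1 (chr9:136494433-136546048), the receptor most studied in keratinocytes, fell from 33.3, 29.9 and 31.9 CPM to 24.8, 24.2 and 23.5 CPM, a log2FC of -0.39 ± 0.074 (adjusted p = 0.00016). For each of these receptors the groups did not overlap, and the exact two-sided permutation test gave p = 0.1, the smallest that 3 against 3 libraries allow. Near-identical NOTCH2NL copies had counts of their own that came to between 1.41% and 7.8% of the NOTCH2 count each. Reads that match both could not be parted, so the NOTCH2 value carries that uncertainty.

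Among the ligands, both Jagged genes were lower in siKLF5b and DLL1 did not pass the test. JAG1 (chr20:10637684-10673999) read 269, 250 and 249 CPM in siNC1 and 199, 199 and 191 CPM in siKLF5b, with a log2FC of -0.38 ± 0.052 (adjusted p = 1.1e-06). JAG2 (chr14:105140982-105168824) had 45.7 ± 1.47 CPM in siNC1 and 40.3 ± 3.27 CPM in siKLF5b (SD, n = 3), with a log2FC of -0.18 ± 0.068 and an adjusted p of 0.0483. The JAG2 groups met at 44 and 43.7 CPM without crossing, and its call was lost without siNC1 replicate 1 or 2 (adjusted p = 0.136 and 0.108), without siKLF5b replicate 1 or 2 (0.247 and 0.116), and with upper-quartile scaling (0.0773), no filter (0.054) or halved counts in the other set (0.0507). DLL1 (chr6:170282206-170306565), the Delta-type ligand, had 17 ± 1.58 and 15.2 ± 0.519 CPM, overlapping groups and an adjusted p of 0.271, and the 95% interval of its log2FC ran from -0.38 to 0.04. LFNG (chr7:2512529-2529177), the fringe enzyme that adds a sugar to Notch and so changes which ligands it answers to, was the least counted member, at 62 to 129 counts in these 6 libraries. Its log2FC was -0.38 with a 95% interval from -0.76 to 0.01 (adjusted p = 0.163), and it was -0.17 without siNC1 replicate 3.

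The targets split. NRARP (chr9:137299631-137302271), a small ankyrin-repeat protein that binds the intracellular domain of Notch and dampens the signal, read 20.2, 16.7 and 16.9 CPM in siNC1 and 12.5, 12.1 and 11.4 CPM in siKLF5b. All siKLF5b values lay below all siNC1 values, with a log2FC of -0.58 ± 0.11 (adjusted p = 0.00016). HES1 (chr3:194136148-194138732), a basic helix-loop-helix repressor and the best known Notch target, read 46.9, 40.8 and 51 CPM in siNC1 and 38.2, 35.1 and 39.9 CPM in siKLF5b. The groups came within 1 CPM of each other, and the log2FC was -0.30 ± 0.11 (adjusted p = 0.0371). The HES1 call was lost without siNC1 replicate 1 or 3 (adjusted p = 0.085 and 0.188), without siKLF5b replicate 1 or 2 (0.0661 and 0.16) and with upper-quartile scaling (0.0535). HEY1 (chr8:79762371-79767857), a related repressor, was the only member with a positive estimate: 15.1 ± 1.86 CPM in siNC1 and 16.9 ± 1.39 CPM in siKLF5b, overlapping groups, and a log2FC of 0.17 with a 95% interval from -0.08 to 0.42 (adjusted p = 0.35).

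In all, 7 of 10 members were lower and 0 were higher in siKLF5b by the adjusted p, where 12.9% of all genes tested were lower and 10.3% were higher. Past both thresholds the count was 1 lower and 0 higher, against 1.37% and 1.89% of all genes. Genes with few counts are harder to call. Here and below, shares over all genes were not matched to the members in count level. The median log2FC was -0.38 over the members and -0.00973 over all genes. The members had been chosen with results of these data known, so the counts describe these 10 genes. The summed level of the squamous markers, which KRT5 dominates, was 9622 to 11058 CPM in siNC1 and 6075 to 7052 CPM in siKLF5b. Not every marker went with the sum. SOX2 was higher in siKLF5b, at 73.2 ± 7.15 CPM in siNC1 and 107 ± 2.09 CPM in siKLF5b (log2FC 0.54, adjusted p = 3.7e-06). TP63 did not pass the test (log2FC -0.13, adjusted p = 0.0666). The part of these markers in the Notch values was not tested. The 3 endothelial markers summed to 14.5 to 15 CPM in siNC1 and 10.8 to 13 CPM in siKLF5b, nearly all of it VWF, with PECAM1 at 6 counts or fewer. The 4 leukocyte markers stayed between 0.191 and 0.534 CPM in these 6 libraries, the 4 alveolar markers between 2.56 and 3.02 CPM, and the 5 fibroblast markers between 3.61 and 6.02 CPM. In bulk RNA, fewer cells of a type and less RNA per cell cannot be told apart.

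**Figure D2:**
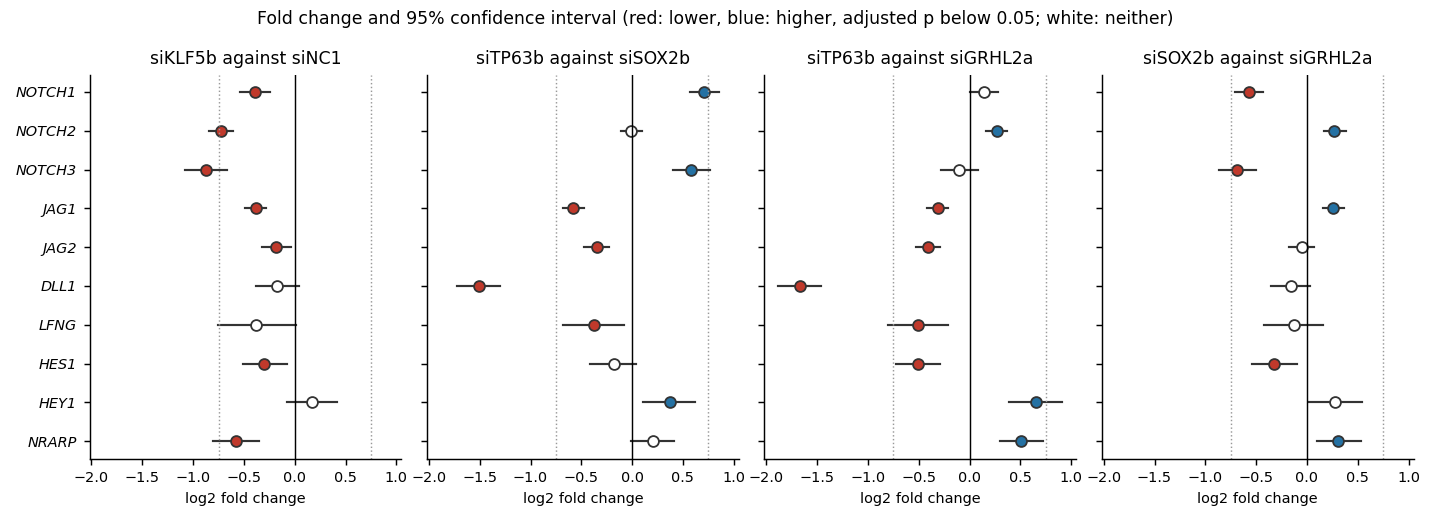
Log2 fold change (horizontal axis) with its 95% confidence interval for the 10 genes in the 4 comparisons; dotted lines stand at 0.75 in either direction. In siKLF5b 9 of 10 estimates are below 0, and the points furthest from 0 are DLL1 in siTP63b, at -1.51 against siSOX2b and -1.67 against siGRHL2a.

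The knockdowns of TP63, SOX2 and GRHL2 had no control siRNA in their own column set, so each was read against the other two, and which of a pair had moved cannot be told apart. The 3 comparisons share libraries and are not independent of each other. DLL1 gave the largest differences. It read 9.19, 7.74 and 7.04 CPM in siTP63b, 23, 23.2 and 22.3 CPM in siSOX2b, and 22, 27.8 and 26.8 CPM in siGRHL2a. The siTP63b libraries stood apart from the rest, with 198 to 282 counts each. The mean in siSOX2b was 2.85 times that in siTP63b (log2FC -1.51 ± 0.1, adjusted p = 3.4e-13) and the mean in siGRHL2a 3.19 times (log2FC -1.67 ± 0.1, adjusted p = 4.2e-14), and in both comparisons DLL1 was the only member past both thresholds. Between siSOX2b and siGRHL2a the log2FC was -0.16 with a 95% interval from -0.35 to 0.03 (adjusted p = 0.226). FAM120B overlaps 65.1% of the DLL1 span on the opposite strand, and its own count came to 262% of the DLL1 count. Whether strand was used in counting is not stated, so reads of the pair could not be parted where they overlap. FAM120B itself had a log2FC of -0.38 in siTP63b against siSOX2b and -0.33 against siGRHL2a, smaller in size than those of DLL1.

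The Jagged genes were also lowest in siTP63b within this set. JAG1 read 212, 218 and 235 CPM in siTP63b, 346, 339 and 306 CPM in siSOX2b, and 280, 270 and 277 CPM in siGRHL2a. None of the groups overlapped, and the order siTP63b, siGRHL2a, siSOX2b held in every library. JAG1 was lower in siTP63b than in siSOX2b by a log2FC of -0.58 ± 0.051 (adjusted p = 1.3e-10) and than in siGRHL2a by -0.31 ± 0.051 (adjusted p = 1.3e-05), and higher in siSOX2b than in siGRHL2a by 0.26 ± 0.05 (adjusted p = 0.00021). An opposite-strand lncRNA, ENSG00000270792, shares 3.59% of the JAG1 span, and its own count came to 26.2% of the JAG1 count. It had log2FCs of -0.58, -0.41 and 0.18 in these comparisons. JAG2 read 86.5, 87.7 and 99 CPM in siTP63b, 117, 121 and 111 CPM in siSOX2b, and 113, 122 and 128 CPM in siGRHL2a. Only siTP63b was apart, with log2FCs of -0.35 ± 0.06 (adjusted p = 2.3e-05) and -0.41 ± 0.059 (adjusted p = 2.9e-06), and siSOX2b against siGRHL2a gave -0.05 with a 95% interval from -0.18 to 0.07. A lncRNA on the same strand, ENSG00000257622, covers 59.7% of the JAG2 span, and its own count came to 20.3% of the JAG2 count. The log2FC of this lncRNA was -0.32 in siTP63b against siSOX2b, -0.30 against siGRHL2a and -0.24 in siKLF5b against siNC1 (adjusted p = 0.00904, 0.0144 and 0.129), near those of JAG2. LFNG followed the ligands at lower counts, 7.75 ± 1.82 CPM in siTP63b, 10.1 ± 0.906 in siSOX2b and 11 ± 1.39 in siGRHL2a (SD, n = 3). It was lower in siTP63b than in siGRHL2a (log2FC -0.51 ± 0.14, adjusted p = 0.00805), a call lost without siTP63b replicate 1 or 2 (0.0632 and 0.0642) or siGRHL2a replicate 3 (0.0768). Against siSOX2b the groups overlapped (log2FC -0.38, adjusted p = 0.0463; -0.59 without siTP63b replicate 3), and the call was lost without siTP63b replicate 1 or 2 (0.183 and 0.197) or siSOX2b replicate 2 or 3 (0.139 and 0.11), in DESeq2 (0.0884), with upper-quartile scaling (0.0509) and with halved counts (0.0578).

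The receptors followed another order, in which NOTCH1 and NOTCH3 were lowest in siSOX2b. NOTCH1 read 30.2, 27.1 and 29 CPM in siSOX2b, 46.8, 43.1 and 51.1 CPM in siTP63b, and 42.1, 43.3 and 42.5 CPM in siGRHL2a. All siSOX2b values lay below all others of the set, and the other two groups overlapped. The log2FC was 0.71 ± 0.069 in siTP63b against siSOX2b (adjusted p = 1.1e-09) and -0.57 ± 0.069 in siSOX2b against siGRHL2a (adjusted p = 1.8e-07), while siTP63b against siGRHL2a gave 0.14 (adjusted p = 0.124). Without siTP63b replicate 2, NOTCH1 reached a log2FC of 0.77 against siSOX2b, which raised the members past both thresholds from 1 to 2, and its difference from siGRHL2a passed the test (log2FC 0.21, adjusted p = 0.0279). NOTCH3 read 14.9, 15 and 12.9 CPM in siSOX2b, 20.8, 19.8 and 23.9 CPM in siTP63b, and 23.5, 21.7 and 24 CPM in siGRHL2a. Its pattern was that of NOTCH1, with siSOX2b apart and the others overlapping. The log2FC was 0.58 ± 0.09 in siTP63b against siSOX2b (adjusted p = 5.6e-06) and -0.69 ± 0.089 in siSOX2b against siGRHL2a (adjusted p = 6.7e-07). NOTCH2 did not follow them: siTP63b had 96.3 ± 3.08 CPM and siSOX2b 96.7 ± 5.91 CPM, with a log2FC of -0.00714 and a 95% interval from -0.11 to 0.10, and it was lower in siGRHL2a at 80.1 ± 4.43 CPM (SD, n = 3; log2FC 0.27 for siTP63b and 0.27 for siSOX2b against it, adjusted p = 0.00022 and 0.0002).

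Of the targets, HES1 had its lowest mean and HEY1 its highest in siTP63b within this set. HES1 read 18.8, 20.4 and 19.7 CPM in siTP63b, 18.6, 20.7 and 28.3 CPM in siSOX2b, and 27.3, 31.6 and 24.7 CPM in siGRHL2a. The third siSOX2b library lay within the siGRHL2a range and the other two near siTP63b. HES1 was lower in siTP63b than in siGRHL2a (log2FC -0.51 ± 0.11, adjusted p = 0.00052). It was also lower in siSOX2b than in siGRHL2a (log2FC -0.32 ± 0.11, adjusted p = 0.0263), a call lost without siSOX2b replicate 1 or 2 (0.258, with a log2FC of -0.19, and 0.142) or siGRHL2a replicate 1 or 2 (0.052 and 0.183), and siTP63b against siSOX2b did not pass (log2FC -0.18, adjusted p = 0.214) except without siSOX2b replicate 1 (-0.31, 0.0433). HEY1 read 12.7, 8.96 and 9.14 CPM in siTP63b, 8.06, 7.15 and 8.75 CPM in siSOX2b, and 6.96, 6.51 and 6.17 CPM in siGRHL2a. It was highest in siTP63b, with a log2FC of 0.65 ± 0.13 against siGRHL2a (adjusted p = 0.00017) and 0.37 ± 0.13 against siSOX2b (adjusted p = 0.0237). The second of these calls was lost without siTP63b replicate 1 (log2FC 0.18, adjusted p = 0.302), without siSOX2b replicate 1 or 2 (0.0536 and 0.123) and with only the 6 libraries fitted (0.0553), and siSOX2b against siGRHL2a gave 0.28 (adjusted p = 0.116).

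NRARP took the same order as HEY1, at 15.2, 15.8 and 17.1 CPM in siTP63b, 12.4, 15.1 and 14.4 CPM in siSOX2b, and 12.7, 9.64 and 11.4 CPM in siGRHL2a. NRARP was higher in siTP63b than in siGRHL2a (log2FC 0.51 ± 0.1, adjusted p = 0.00031), and the adjusted p stayed at or below 0.00559 under every alternative run. The difference of siSOX2b from siGRHL2a (log2FC 0.31 ± 0.11, adjusted p = 0.0285) came with overlapping groups and was lost without siSOX2b replicate 2 or 3 (0.125 and 0.0604) or siGRHL2a replicate 2 (0.18), and that of siTP63b from siSOX2b did not pass (log2FC 0.20, adjusted p = 0.146). An opposite-strand lncRNA, ENSG00000288234, lies over 21.2% of the NRARP span, and its own count came to 53.4% of the NRARP count. Its log2FC of -0.42 in siKLF5b and 0.44 in siTP63b against siGRHL2a had the sign of the NRARP values.

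Counted over the 10 members, siTP63b against siSOX2b gave 4 lower and 3 higher, where 15.4% and 16.4% of all genes were, and 1 was lower and 0 higher past both thresholds, against 2.82% and 3.88%. In siTP63b against siGRHL2a, 5 were lower and 3 higher, against 13.4% and 13.6% of all genes, and past both thresholds 1 and 0, against 3.21% and 2.18%. In siSOX2b against siGRHL2a, 3 were lower and 3 higher, against 12.7% and 11.8%, and past both thresholds 0 and 0, against 2.27% and 1.05%. The medians of the log2FC over members were -0.10, -0.21 and -0.09, and over all genes 0.000595, -0.00899 and -0.02. Squamous markers, again with KRT5 dominating the sum, summed to 6162 to 7118 CPM in siTP63b, 8552 to 9451 in siSOX2b and 10957 to 11286 in siGRHL2a. SOX2 among them did not follow the sum, at 29.5 ± 2.23, 8.96 ± 1.63 and 20.1 ± 1.53 CPM in that order. The part of these markers in the Notch values was not tested. In the same order, alveolar markers summed to 5.48 to 5.87, 7.94 to 9.72 and 9.53 to 11.2 CPM, fibroblast markers to 5.23 to 7.47, 8.24 to 9.99 and 7.65 to 8.97 CPM, and endothelial markers to 5.03 to 6.91, 3.15 to 4.6 and 5.6 to 7.54 CPM, and their part was not tested either. Leukocyte markers were at 1.21 CPM or less in all 9 libraries.

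The make-up of the receptor and ligand mRNA was also compared, as shares of the family total of CPM per kb of exon. NOTCH2 made up 59.4% to 60.9% of the 3 receptors in the siSOX2b libraries, 46.5% to 50.1% in siTP63b and 43.3% to 46.7% in siGRHL2a. The siSOX2b range lay above the other two. In the first set it held 52.7% to 54.7% in siNC1 and 50.9% to 51.5% in siKLF5b, and the NOTCH1 share was 26.9% ± 0.56 in siNC1 and 32.2% ± 0.766 in siKLF5b (SD, n = 3). DLL1 supplied 4.33% to 6.22% of the 3 ligands in siTP63b and 9.8% to 13.1% in the libraries of the other 4 groups. The ratio of JAG1 to JAG2 per kb was 3.86 ± 0.117 in siNC1 and 3.37 ± 0.341 in siKLF5b, whereas it was 1.68 ± 0.0387, 1.96 ± 0.0759 and 1.58 ± 0.118 in siTP63b, siSOX2b and siGRHL2a. The shares were not tested, and their size depends on the exon lengths used.

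**Figure D3:**
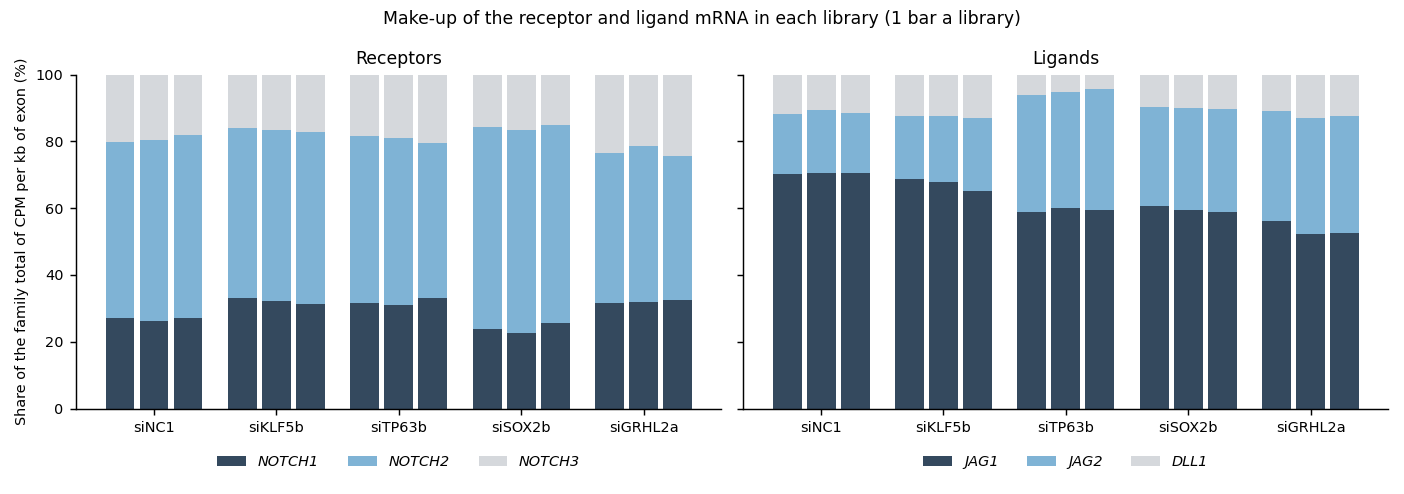
Share of each gene in the summed level of the 3 receptors (left) and the 3 ligands (right), in percent of CPM per kb of exon, with 1 bar for each of the 15 libraries. NOTCH2 reaches 59.4% to 60.9% in siSOX2b, and DLL1 narrows to 4.33% to 6.22% in siTP63b.

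Levels also differed between the column sets, where a knockdown and the set cannot be told apart. HES1 was between 35.1 and 51 CPM in the 6 libraries of the first set (siNC1, siKLF5b) and between 18.6 and 31.6 CPM in the other 9. HEY1 stood at 13.2 to 18.2 CPM in the first set and 6.17 to 12.7 CPM in the second. JAG2 went the other way, at 37.2 to 46.8 CPM against 86.5 to 128 CPM, as did LFNG at 2.83 to 5.4 CPM against 6.62 to 12.6 CPM. For these 4 genes the sets did not overlap, whereas those of NOTCH1, NOTCH2, NOTCH3, JAG1, DLL1 and NRARP did. The share of all genes whose sets did not overlap was not counted, so whether this is particular to the Notch genes cannot be told.

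The rest of the pathway was followed through 56 other genes grouped by role, of which 50 were tested. NOTCH4, the remaining receptor, had at most 39 counts in a library, and DLL4, DLK1, HES5, HES7, DTX1 and DTX3 did not pass the filter. In siKLF5b against siNC1, 14 of the 50 were lower and 5 higher (28% and 10%, against 12.9% and 10.3% of all genes). Both ADAM proteases of the list were lower, ADAM17 from 119 ± 5.33 to 86 ± 4.32 CPM (log2FC -0.47 ± 0.051, adjusted p = 2.9e-08) and ADAM10 from 271 ± 4.21 to 228 ± 2.97 CPM (log2FC -0.25 ± 0.046, adjusted p = 0.00011). MIB1, a ubiquitin ligase that drives ligand uptake, was lower too (log2FC -0.23 ± 0.055, adjusted p = 0.00193), and so was SPEN, a co-repressor that binds RBPJ (log2FC -0.36 ± 0.05, adjusted p = 1.6e-06). Among genes that act on receptor turnover, 4 of 8 were lower, DTX2 the most (20.8 ± 1.05 to 12.9 ± 0.936 CPM, log2FC -0.70 ± 0.087, adjusted p = 2.6e-07). RBPJ itself was at 50.3 ± 1.9 and 50.7 ± 2.05 CPM, and gamma-secretase genes went both ways, with PSEN2 lower and APH1B and NCSTN higher. HES2, another HES repressor, was the only gene of the list past both thresholds, at 12.9 ± 0.654 and 7.48 ± 0.755 CPM (log2FC -0.78 ± 0.11, adjusted p = 4.5e-06). The list median was -0.09.

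In the other set, HES2 was lower in siTP63b than in siSOX2b and in both than in siGRHL2a, at 6.98 ± 0.715 CPM in siTP63b, 9.3 ± 1.09 in siSOX2b and 17.1 ± 0.726 in siGRHL2a (SD, n = 3). Its log2FC was -1.30 ± 0.11 in siTP63b and -0.89 ± 0.1 in siSOX2b against siGRHL2a (adjusted p = 4.1e-11 and 9.8e-08). In siTP63b against siSOX2b, 11 of 50 genes were lower and 11 higher (22% each, against 15.4% and 16.4% of all genes). MAML2, a Mastermind co-activator, was at 170 ± 8.75 and 98.3 ± 2.3 CPM (log2FC 0.79 ± 0.054, adjusted p = 3.9e-13), while its partner RBPJ was lower, at 39.5 ± 3.87 and 51.6 ± 1.21 CPM (log2FC -0.38 ± 0.065, adjusted p = 2.3e-05). DLK2, a Delta-like protein that lacks the receptor-binding domain of the canonical ligands, was lower in siTP63b than in siSOX2b (log2FC -1.0 ± 0.19, adjusted p = 0.00014) and than in siGRHL2a (-1.31 ± 0.19, adjusted p = 2.6e-06), and so was MFNG, a second fringe enzyme (-0.82 ± 0.21 and -0.94 ± 0.21, adjusted p = 0.00312 and 0.00088), at no more than 207 and 116 counts in a library. In siTP63b against siGRHL2a, 7 were lower and 11 higher (14% and 22%, against 13.4% and 13.6% of all genes). HES4 and HES6 passed both thresholds (log2FC 1.13 ± 0.26 and 0.88 ± 0.29) at 92 and 56 counts or fewer. In siSOX2b against siGRHL2a, 8 were lower and 8 higher (16% each, against 12.7% and 11.8% of all genes). Of the 8 genes of the nuclear complex, 5 were lower and 2 higher. The 2 higher were SNW1 and RBPJ (log2FC 0.17 ± 0.058 and 0.19 ± 0.064, adjusted p = 0.0261 and 0.03). KAT2B differed the most in size (log2FC -0.69 ± 0.16, adjusted p = 0.0013), at 2.85 CPM in siSOX2b and 4.56 CPM in siGRHL2a. List medians were -0.03, -0.06 and -0.03.

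**Figure D4:**
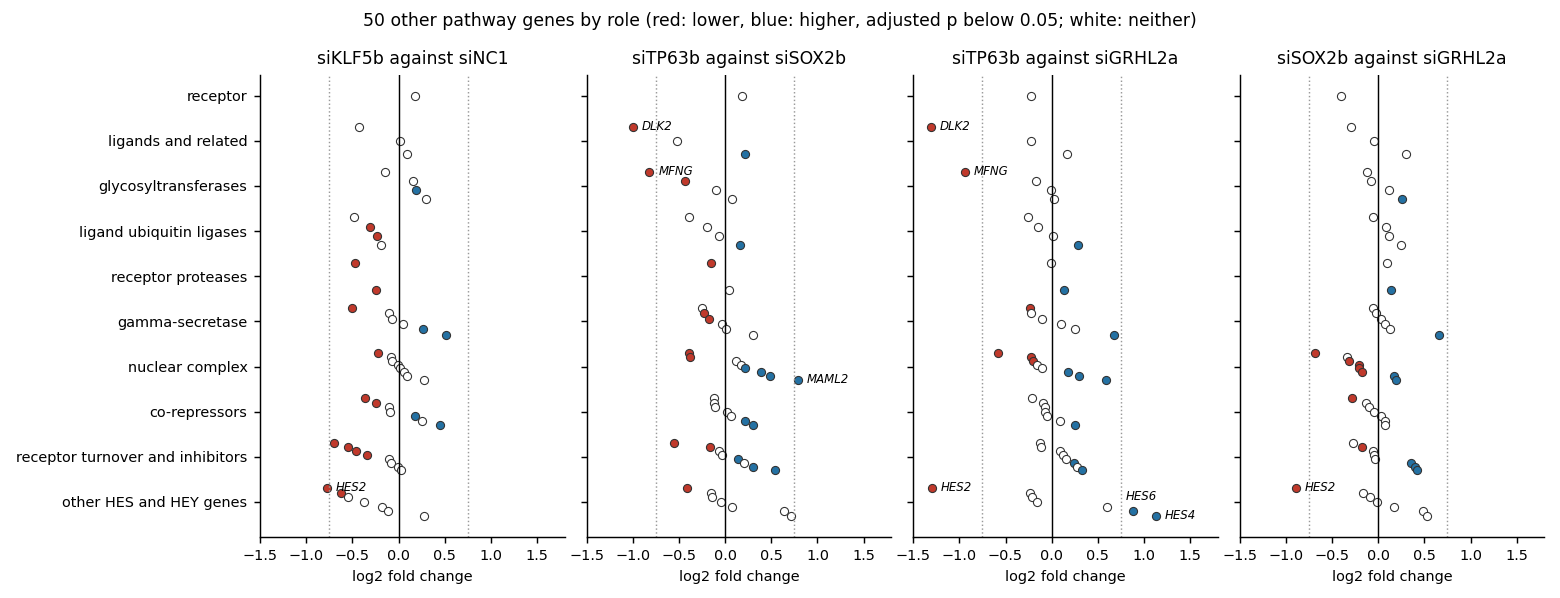
Log2 fold change of the 50 other pathway genes that were tested, in rows by role, for the 4 comparisons; names mark genes past both thresholds, and dotted lines stand at 0.75 in either direction. HES2 is named in 3 of the 4 panels, and both receptor proteases are lower in siKLF5b.

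Profiles across the 15 libraries were compared after the mean of each column set had been subtracted from log2 CPM, over the 15346 genes whose mean reached 100 counts. Closest to HES1 were LINC00963, MEST and TMEM40, with Pearson r of 0.899, 0.875 and 0.845. HEG1, DUSP6 and KIF5C came closest to JAG1, at 0.973, 0.971 and 0.968, and MRTFB, SEC14L1 and DYNC1LI2 to NOTCH1, at 0.972, 0.971 and 0.97. Among the members, NOTCH3 was nearest to NOTCH1 with r = 0.87, at rank 215, and JAG2 to JAG1 with r = 0.78, at rank 752. For HES1 the nearest member was LFNG with r = 0.63, at rank 478, and the furthest was HEY1 with r = -0.61. These r describe 15 libraries in 5 groups, in which replicates share their group, and carry no p.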

How the data were processed

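HCC95 cells were transfected with siNC1, siKLF5b, siTP63b, siSOX2b or siGRHL2a, with 3 libraries per group, grouped by their titles. Poly(A) RNA was reverse-transcribed with random hexamers and sequenced as paired-end reads, although the molecule field of the labels reads genomic DNA. Per the labels and the study's methods, the authors aligned reads to hg38 with HISAT2 2.2.1 and counted them on Gencode release 40 genes with featureCounts 2.0.1. The deposited values are raw counts per gene over its whole span, not normalized, and whether strand was used or mates were counted singly is not given in the sources used here. Each of the 15 count columns names its library. The table held 0 rows without a gene name.

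Counts were analysed with edgeR 4.0.16 in R 4.3.3: TMM factors, filterByExpr by group, 1 quasi-likelihood fit of the 15 libraries, and Benjamini-Hochberg adjustment over 25108 genes. Calls used an adjusted p below 0.05 alone, or with an absolute log2FC above 0.75. Levels are CPM (counts scaled by library total and TMM factor), divided by exon length of Gencode release 44 (10 of 10 members with the same span) where genes are compared. Single members were also compared by two-sided exact permutation of log2 CPM. Replicates differed by more than counting noise, with a chi-square per gene from 2.04 to 4.34 in siNC1 and siKLF5b and from 4.95 to 8.1 in the other set. Mates counted singly would raise this value, and whether they did so in the other set was not tested. The members, the 56-gene list and the tests were chosen with earlier results of these data known. Every member was named, list genes where they passed both thresholds or represent a role, and the 3 closest profiles for HES1, JAG1 and NOTCH1. Roles and examples from the list were picked after their values were seen. The SOX-POU motif was searched after the NRARP sequence was seen. The fit was tested on simulated counts.

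Alternatives were RLE and upper-quartile factors, at least 10 counts in every library, no filter, the replicate number as a block, counts of the 9 libraries of the second set divided by 2, only the 6 libraries compared, DESeq2 1.42.0, no log2FC threshold, a threshold of 1, each library left out, plain library totals for CPM, and the whole gene span as length.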

Additional observations from a re-analysis of the deposited data

How the results depend on the processing

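Of 560 recomputed log2FC values of the 10 genes, 521 kept their direction and their side of an adjusted p of 0.05, 33 lost the call, 2 gained it and 4 changed sign. The sign changed for NOTCH2 in siTP63b against siSOX2b (main value -0.00714) with upper-quartile factors (0.0037), without siTP63b replicate 2 (0.02) and without siSOX2b replicate 1 (0.03; -0.06 to 0.03 over the libraries left out), and for JAG2 in siSOX2b against siGRHL2a without siGRHL2a replicate 3 (0.00018; -0.10 to 0.00018), none of them called. The range of NOTCH3 in siKLF5b was -0.93 to -0.81, of NOTCH2 -0.75 to -0.71, and of DLL1 -1.63 to -1.43 against siSOX2b and -1.78 to -1.58 against siGRHL2a. With no threshold on the log2FC, members called numbered 7 in siKLF5b, 7 in siTP63b against siSOX2b, 8 against siGRHL2a and 6 in siSOX2b against siGRHL2a, and all genes called 5828, 7977, 6792 and 6151 in place of 818, 1682, 1354 and 833. With a threshold of 1, members numbered 0 in siKLF5b and all genes 369, 1005, 826 and 485 in that order. At 10 counts in every library, fewer genes were tested and 1090, 897 and 514 were called in the last 3 comparisons. Leaving out 1 library each gave 1 to 2 members past both thresholds in siTP63b against siSOX2b. With the replicate number as a block, 805, 1667, 1345 and 825 genes and 1, 1, 1 and 0 members passed. Same-numbered libraries did not deviate together (correlations of -0.0312 to 0.0345), so this replicate block has no stated basis in pairing. LFNG had the fewest counts of the members, 62 to 412 per library.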

Other observations

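The NRARP promoter held CATTGT, 1 further base and then ATGCAA, from -55 to -43, the arrangement at which a SOX factor and a POU factor can bind side by side. Searched on both strands, this composite was present in 3 of the 34943 RefSeq promoters (0.00859%), that of NRARP included. The shorter SOX core ACAATG, whose reverse opens the composite, was in 9.3% of promoters and in 1 of the 9 member windows searched, that of NRARP. NRARP had 14 ± 1.39 CPM in siSOX2b, 16 ± 1.01 in siTP63b and 11.2 ± 1.53 in siGRHL2a (SD, n = 3), and SOX2 had 8.96 ± 1.63, 29.5 ± 2.23 and 20.1 ± 1.53 CPM in that order. These groups have no control siRNA in their column set, and a part of SOX2 in the NRARP values was not tested. Binding was not measured in these files. The motif was looked for after the sequence had been read, so its rarity is a description and not a test.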
